A study of Mus musculus with 9 samples.

Results

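The left ventricle of the db/db mouse was compared here with that of the wild-type mouse, gene by gene, in 3 libraries of each. The libraries are called hearts below, although the labels do not say whether those of a group come from separate animals. The members described are the genes with a deposited level of at least 0.5 RPKM (read count corrected for gene length and library size) in at least 3 of these 6 libraries, which gave 13485 of the 30128 genes of the table. This rule does not use the difference between the groups, but a gene can pass it through 1 group alone. In 131 members all 3 control libraries and no db/db library reached the level, and in 70 members the reverse held. For those members the rule and the difference are not independent. Just inside it, 617 genes reached the level in exactly 3 libraries, with a median third-highest value of 0.559 RPKM. Just outside, 693 genes reached it in exactly 2, where that median was 0.428 RPKM.

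The db/db mice are labelled with the db/db genotype, a loss-of-function state of the leptin receptor, and with AAV9_null, an adeno-associated virus of serotype 9 without the tested cargo. The control mice are labelled wild type with no treatment named, so the genotype and the empty virus cannot be told apart. The labels give no strain, age, sex or time of day for either group. A further 3 db/db hearts received the same serotype carrying USP28 behind the cTnT promoter, which is active in cardiomyocytes. They are not compared here, but entered the scaling, the level filter of the genes tested and the estimate of the spread between hearts. The series was set up to ask what overexpression of this deubiquitinating enzyme does in the diabetic heart.

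The heart muscle cell draws most of its energy from fatty acids, taken up from lipoproteins and albumin, bound to coenzyme A and oxidised in mitochondria, and the rest from glucose, lactate, ketone bodies and amino acids. In diabetes its supply of fatty acids grows while insulin-driven glucose use declines, and the nuclear receptor PPAR alpha, which senses fatty acids, sets the expression of many genes of their oxidation. Contraction rests on the sarcomere, on junctions and costameres that carry force to neighbouring cells, and on calcium that cycles through the sarcoplasmic reticulum. Fibroblasts, endothelial cells, mural cells and macrophages share the tissue and contribute RNA of their own.

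Depth was 35970332 to 56497662 reads per library over the 9 libraries, and mitochondrially encoded genes took 15.7% to 19.9% of them. One library stood apart. The mean absolute log2 departure from its group was 0.334 in db/db replicate 1, against 0.145 to 0.214 in the other libraries. Its levels also ran with gene length. Over 5 equal bins of gene length, its median log2 departure from the control mean was 0.41 in the bin of the shortest genes and -0.33 in that of the longest, while db/db replicates 2 and 3 went from 0.088 and 0.090 to -0.086 and -0.063. The part of gene length in the results was not tested beyond the values given below without this library and with trends on length and GC content removed. In addition, 11 genes held values in db/db columns that are not a whole number of reads, among them Cpt1b, Dgat2, Mfn1, Mfn2, Pparg and Slc27a1 in the null-virus columns. No control value was of that kind.

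**Figure D1:**
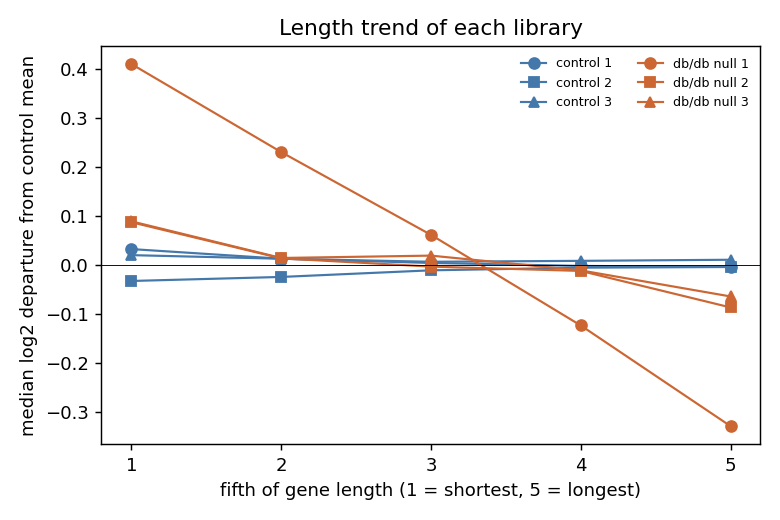
Median log2 departure of each library from the control mean (vertical axis) over 5 equal bins of gene length (horizontal axis, 1 the shortest). Each line is 1 library, and db/db replicate 1 runs from 0.41 to -0.33 while the control lines stay near 0.

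Cardiomyocyte markers defined the tissue in every library. Their summed level was 41786 to 46921 scaled RPKM in control and 36853 to 55893 in db/db hearts, where scaled RPKM is the deposited value after a trimmed mean scaling of the libraries. Usp28, the gene the virus of the third group carries, was at 12.6, 13.3 and 13.8 scaled RPKM in control and 10, 7.56 and 7.84 in db/db hearts. The groups did not overlap, and the log2 difference was -0.65 (SE 0.12, limma adjusted p = 0.00837; exact permutation p = 0.1, the smallest that 3 against 3 allows). Lepr, the gene mutated in db/db mice, lay below the level rule at 0.149 ± 0.112 in control and 0.190 ± 0.0323 in db/db hearts (SD, n = 3; exact permutation p = 0.5). As it was below the rule, it gave no check of the labels.

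Of the 13485 genes, 3090 (22.9%) differed between the groups at an adjusted p under 0.05, by limma with Benjamini-Hochberg adjustment over all 14104 genes tested. Levels rose in 1411 (10.5%) and fell in 1679 (12.5%) in db/db hearts, and these are the genes called higher, risen, lower or fallen below. Over all genes tested the share called was 22.2%. The median log2 difference was 0.0043 over all members, 0.70 over those that rose and -0.69 over those that fell. Changes beyond 2-fold were found in 309 risen and 393 fallen genes, and beyond 4-fold in 28 and 36. The groups did not overlap for 5689 genes (42.2%). The same held for 3067 of the 3090 called genes, so its mention for a called gene below adds little to the call. Without db/db replicate 1 the numbers were 2091 higher and 2280 lower. They were 1603 higher and 1661 lower once length and GC trends were removed, 658 and 790 without control replicate 2, and 686 and 759 without control replicate 3. A fit of only the 6 libraries compared gave 729 higher and 954 lower. Counts of a list without a library, below, are from fits that leave it out, given mainly where they move by over 1.5 times.

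**Figure D2:**
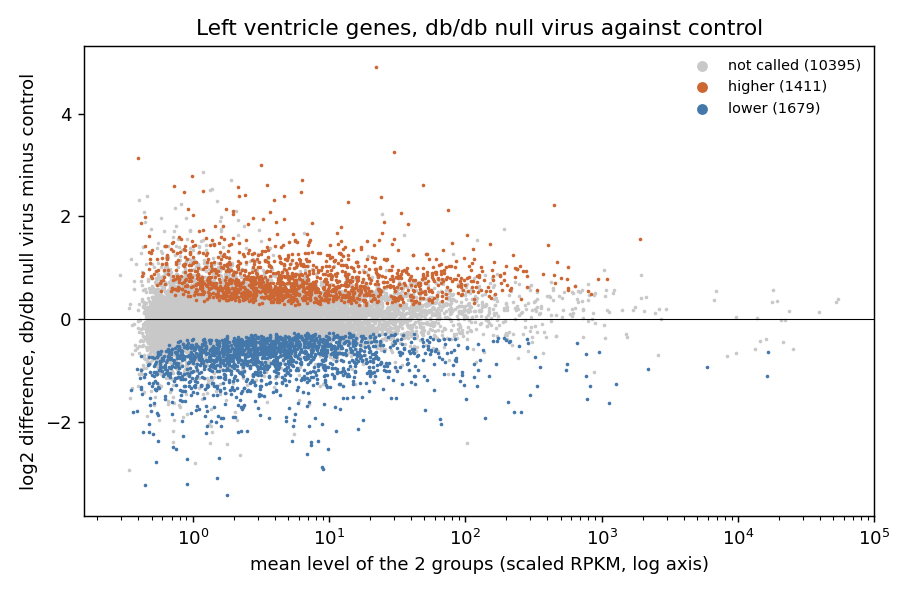
Log2 difference between db/db null-virus and control hearts (vertical axis) against the mean level of the 2 groups in scaled RPKM (horizontal log axis), 1 point per gene. The 1411 higher genes are orange, the 1679 lower genes blue and the others grey.

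Higher and lower genes differed in kind. Genes that rose were more frequent among strongly expressed genes, from 4.26% in the lowest of 5 equal bins of level to 17.6% in the highest. Fallen genes also grew more frequent with level, from 8.31% in the lowest bin to 13.3% in the highest. Over 5 equal bins of GC content, risen genes went from 6.85% to 13.9% and fallen genes from 16.1% to 8.68%. Genes that fell were more frequent among long ones, from 6.08% in the bin of the shortest to 20.2% in that of the longest, the property along which db/db replicate 1 departs. On chromosome 7, 14.5% of members were higher and 8.67% lower, and on chromosome 12, 9.82% were higher and 16.5% lower. None of the 37 members on the mitochondrial chromosome rose and 7 fell. Among 727 pseudogenes 73 rose and 22 fell. The genes that fell held 13% of the summed control level and 6.90% of the db/db level, and the genes that rose went from 3.97% to 6.96%. The summed change of the fallen genes was -39327 scaled RPKM. Much of it lay in mt-Tm, mt-Nd4l and other short mitochondrial genes, described below, whose RPKM is inflated.

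Wide rises were found in genes of several kinds. Acot1 (chromosome 12, 84009502 to 84017670, GRCm38), a thioesterase that frees fatty acids from coenzyme A, was at 8.18, 3.61 and 5.65 scaled RPKM in control and 55.4, 49.7 and 55.9 in db/db hearts, a log2 difference of 3.26 (SE 0.25, adjusted p = 4.6e-04). All 3 db/db hearts lay far above the highest control. It is nearly identical to its neighbour Acot2 (log2 difference 2.13), so reads may have been assigned to either. Cdo1, cysteine dioxygenase of the pathway to taurine, was at 0.733, 0.567 and 0.259 in control and 1.6, 5.89 and 9.91 in db/db hearts (log2 difference 3.0), with db/db replicate 1 the lowest of its group and still above every control. Inmt, an indolethylamine methyltransferase, went from 1.67 ± 0.783 to 10.9 ± 2.47 scaled RPKM (SD, n = 3; log2 difference 2.71). The galectin gene Lgals4 went from 13.9 ± 3.2 to 84.7 ± 12.7 (log2 difference 2.61), at the highest level of the genes in this paragraph. Pth1r, the parathyroid hormone receptor, Chrna2, a nicotinic receptor subunit, Cldn15, a tight junction claudin, and Tcf23, a basic helix-loop-helix factor, rose from levels of 0.97, 0.502, 0.297 and 0.678, with log2 differences of 2.61, 2.57, 2.5 and 2.43. Angptl4, which the same rule named, is described with lipid uptake. The groups did not overlap in any of these genes, a property of the rule that named them.

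Among the widest falls, Nt5c1a, the cytosolic nucleotidase that turns AMP into adenosine, was at 2.49, 2.98 and 2.58 scaled RPKM in control and 0.0544, 0.185 and 0.684 in db/db hearts (log2 difference -3.09, SE 0.52, adjusted p = 0.00501). Mylk4, a myosin light chain kinase family member of striated muscle, was at 17.4, 14.5 and 14.8 in control and 1.52, 2.24 and 2.47 in db/db hearts (log2 difference -2.87). Krt222, a keratin-like gene, had the tightest replicates, at 11.9, 11.6 and 12.5 in control and 2.14, 1.72 and 1.75 in db/db hearts (log2 difference -2.63, adjusted p = 4.0e-05). For both genes every db/db heart was far below the lowest control. Col3a1, fibrillar type III collagen, went from 12.5 ± 3.49 to 2.24 ± 0.885 (log2 difference -2.46). S100a9, a calcium-binding protein of neutrophils, went from 12.4 ± 3.37 to 2.29 ± 0.691 (log2 difference -2.39). It was the 1 granulocyte marker at the level of the rule, so their sum holds no separate value. Scube2, a secreted protein that releases hedgehog ligands, and Epn3, an epsin of endocytosis, had log2 differences of -2.21 and -2.21. Taco1os, antisense to Taco1, was at a log2 difference of -2.17, and whether strand was used in counting is not known from the labels. Mir5116 and Mir6950 are microRNA hairpin genes of 63 and 73 bases whose levels rest on few reads. Mir5116 was listed at 0 in db/db replicates 1 and 3. Its adjusted p was 0.0464, but 0.119 without db/db replicate 1 and 0.124 without control replicate 2.

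**Figure D3:**
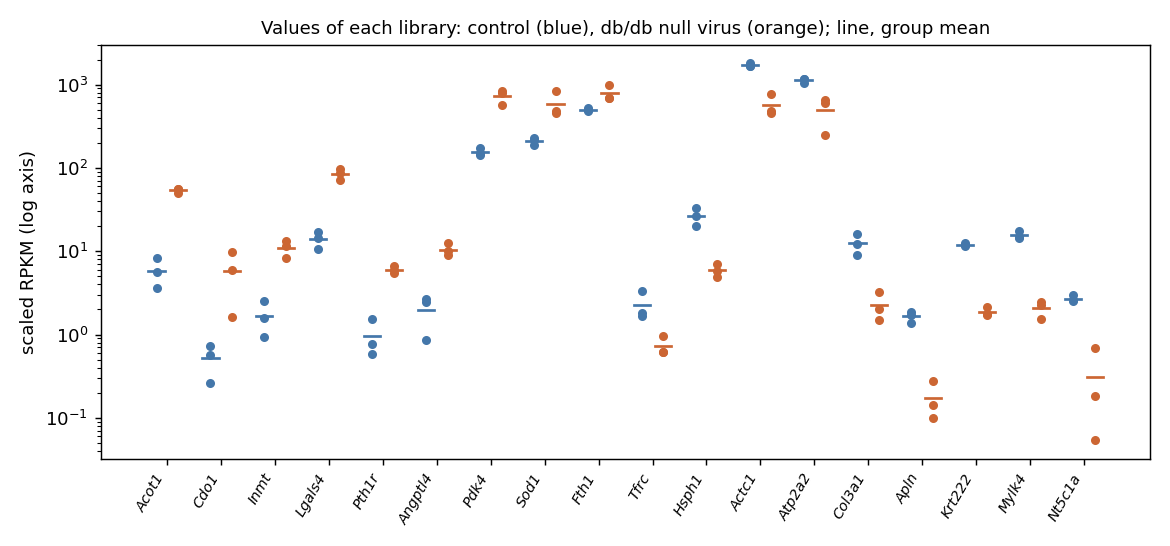
Scaled RPKM (vertical log axis) of 18 genes in each control heart (blue) and each db/db null-virus heart (orange), with short lines at the group means. Acot1 and Cdo1 show wide gaps upward and Nt5c1a, Mylk4 and Krt222 wide gaps downward. The 18 were picked among called genes, and their groups do not overlap, as held for 3067 of all 3090 called genes.

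By amount of transcript rather than by ratio, the gains among called genes were led by genes of fuel use, redox defence and translation. Pdk4, which inactivates pyruvate dehydrogenase by phosphorylation, gained 576 scaled RPKM, from 156 ± 17.8 to 732 ± 145. Etfb, which passes electrons from fatty acid oxidation to the respiratory chain, gained 526, Sod1, the cytosolic superoxide dismutase, 381, the ribosomal protein gene Rps24 419 and Ybx1, an RNA-binding cold shock protein, 311. Gm45233 overlaps Etfb with near-identical values, and Gm29015 and Mir5121 are short, so reads of neighbouring or host genes cannot be parted from theirs. The losses among called genes were led by mt-Tm, the mitochondrial methionine tRNA gene, which fell by 11635 scaled RPKM, and mt-Nd4l, a subunit gene of complex I, which fell by 7224. Other mitochondrial tRNA genes (mt-Tq, mt-Tw and mt-Ti) and the gene model Gm25745 were also among the 8 largest losses. They are short, so their RPKM is inflated. In addition, mt-Tw did not pass without db/db replicate 1 (adjusted p = 0.0506) or without control replicate 3 (adjusted p = 0.103). Of called nuclear protein genes, Actc1 fell by 1144 and Atp2a2 fell by 628, both described with contraction. Gm22121 was listed at 0 in all 3 control hearts and at 0.5 RPKM or more in all 3 db/db hearts, and Mir2139 and Mir199a-1 the reverse, of which Mir199a-1 was not called. Etfb, Gm29015, Gm45233, Mir5121, Rps24 and Ybx1 had log2 differences of 0.51, 0.90, 0.51, 0.68, 0.62 and 0.36 without db/db replicate 1. Adjusted p rose above the threshold, to the value given, for Etfb (0.108), Gm29015 (0.142), Gm45233 (0.108), Mir5121 (0.0961), Rps24 (0.109), Ybx1 (0.144), mt-Ti (0.0586) and mt-Tq (0.112) without control replicate 2 and Atp2a2 (0.0807), Mir2139 (0.0842), mt-Nd4l (0.118) and mt-Tm (0.0754) without control replicate 3.

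Across 74 lists of genes grouped by process, 2551 members were covered, of which 29.9% were called, 377 higher and 387 lower. Over all members the share called was 22.9%. In 18 of these lists more than 40% of members were called. A further 2326 called genes belong to no list. The lists were chosen with earlier results of these data known, and called genes were more frequent among strongly expressed genes. The part of that choice and of level in the larger share called within the lists was not tested.

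**Figure D4:**
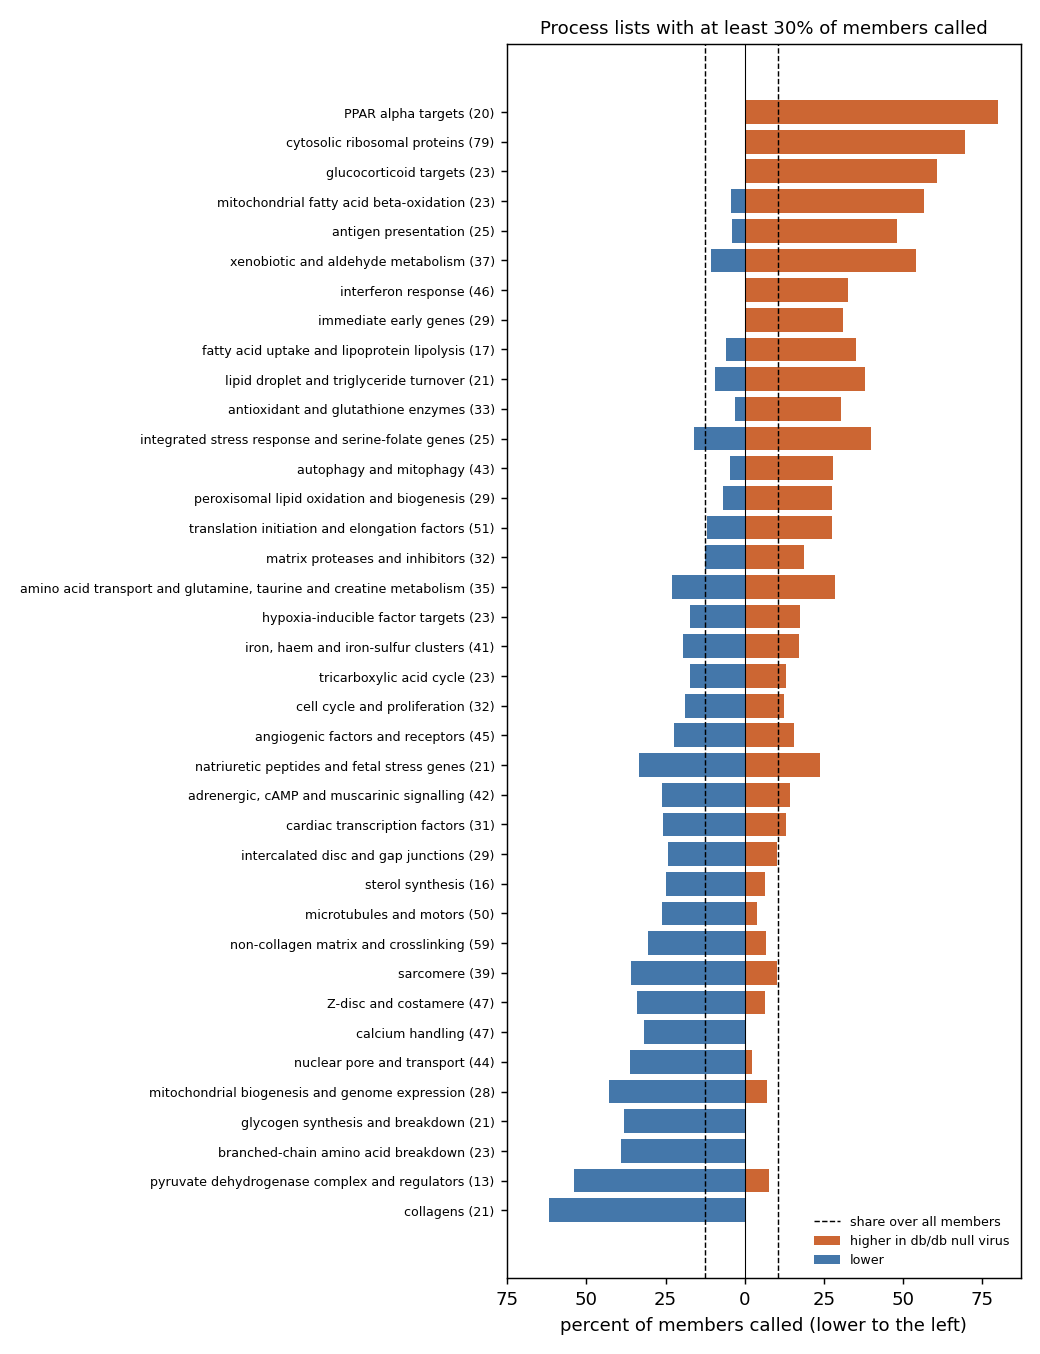
Percent of the measured members of each process list that rose (orange, to the right) or fell (blue, to the left), for lists of at least 10 members with at least 30% called; members are counted in brackets. Dashed lines are the shares over all members, 10.5% higher and 12.5% lower; PPAR alpha targets and ribosomal proteins stand at the top and collagens at the bottom.

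Genes of fat oxidation were higher at many steps of the path. Among 20 PPAR alpha targets 16 rose and 0 fell (median log2 difference 0.81, against 0.0043 over all members). Mitochondrial beta-oxidation had 13 of 23 members higher and 1 lower (median 0.48). Without db/db replicate 1 the counts were 17 and 0, and 14 and 1. The median over PPAR alpha targets was 1.04, 0.76 and 0.78 above the control mean in the 3 db/db hearts, and -0.13 to 0.12 in the control hearts. Beta-oxidation had 8 higher and 0 lower without control replicate 2, and 14 and 1 without db/db replicate 1. An exact PPAR direct repeat was found in 0 of the 14 PPAR alpha targets with a RefSeq promoter. It was also found in 0 of 19 beta-oxidation promoters, and in 0.0481% of all promoters.

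Entry and activation of fatty acids were among the changes. Angptl4, a secreted inhibitor of lipoprotein lipase, was at 0.858, 2.64 and 2.45 scaled RPKM in control and 12.4, 9.97 and 8.97 in db/db hearts (log2 difference 2.47, adjusted p = 0.00369). Slc27a1, a fatty acid transporter and acyl-CoA synthetase, had a log2 difference of 1.23, with a value that is not a whole number of reads in db/db replicate 1. Gpihbp1, which anchors lipoprotein lipase to capillary endothelium, Fabp4 and Fabp5, fatty acid-binding proteins of endothelial and fat cells, had log2 differences of 1.35, 1.45 and 0.67. In all, 6 of 17 uptake genes rose and 1 fell, Acsl6, an acyl-CoA synthetase (log2 difference -0.55). Fabp3, the cardiomyocyte fatty acid-binding protein and the most abundant of the list, was at 5508 ± 728 in control and 8268 ± 2776 in db/db hearts and did not pass (adjusted p = 0.105). Cidea and Fabp4, both used as fat cell markers, rose, but only 3 of the 12 fat cell markers reached the level of the rule. The summed level of the 12 was 82.8 to 122 scaled RPKM in control and 220 to 367 in db/db hearts. It includes Fabp4, which is also counted as an endothelial marker. The part of fat cells in these rises was not tested. Fabp5 had a log2 difference of 0.43 without db/db replicate 1. Calls lost on leaving out 1 library, with the highest adjusted p, were Acsl6 (0.106) and Fabp5 (0.131) without control replicate 2.

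Inside the mitochondrion, Decr1, the reductase for unsaturated acyl chains, had a log2 difference of 1.17. Acadvl, the first dehydrogenase for very long chains, and Acaa2, the thiolase of the last step, had log2 differences of 0.84 and 0.80, and Eci2, an enoyl-CoA isomerase, had 0.92. Mlycd, which removes the malonyl-CoA that blocks carnitine transfer, was at 12.1, 11.1 and 12.2 scaled RPKM in control and 24.4, 20.3 and 18.5 in db/db hearts (log2 difference 0.82). Peroxisomal oxidation had 8 of 29 members higher and 2 lower, with Ech1, a dienoyl-CoA isomerase, at a log2 difference of 1.24 and Pex11a, which drives peroxisome division, at 1.06. Pex19, an import receptor for peroxisomal membrane proteins, fell (log2 difference -0.52). Peroxisomal genes had 5 higher and 1 lower without control replicate 1 or 3 or db/db replicate 2, 10 and 2 without db/db replicate 1, and 4 and 2 without control replicate 2.

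Lipid droplet genes that rose included coat proteins and lipases. Pnpla2, the triglyceride lipase that starts droplet breakdown, was at 46.5, 36.1 and 43.1 scaled RPKM in control and 99.1, 130.1 and 121 in db/db hearts (log2 difference 1.47), and the groups did not overlap. Lipe, hormone-sensitive lipase, Plin2 and Plin5, droplet coat proteins, had log2 differences of 1.14, 0.82 and 0.81. Of 21 droplet genes 8 rose and 2 fell, Lpin1, the phosphatidate phosphatase of triglyceride synthesis (log2 difference -1.24), and Abhd5, the coactivator of Pnpla2 (-0.39). In sterol synthesis 4 of 16 members fell and 1 rose. Idi1, Mvk and Hmgcs1 of the mevalonate pathway had log2 differences of -1.12, -1.03 and -0.76, and Fdft1, squalene synthase, had 0.81. Among 15 genes of fatty acid synthesis 2 rose, led by the desaturase gene Scd4 (log2 difference 2.08), and 1 fell, Mlxipl, the carbohydrate-response factor ChREBP (-0.88). Lipid droplet and triglyceride turnover had 6 higher and 1 lower without control replicate 2 or 3 or db/db replicate 2 or 3, and 9 and 4 without db/db replicate 1. Sterol synthesis had 1 higher and 1 lower without control replicate 2 or 3, and 1 and 6 without db/db replicate 3. Fatty acid synthesis and desaturation had 1 higher and 1 lower without control replicate 1 or 2 or 3 or db/db replicate 3, and 5 and 1 without db/db replicate 1. The threshold was missed, at the adjusted p given, by Abhd5 (0.0861) without control replicate 2 and Idi1 (0.0774) and Mvk (0.061) without control replicate 3.

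Among genes of carbohydrate, ketone and amino acid oxidation, more members fell than rose. Pyruvate dehydrogenase and its regulators had 7 of 13 members lower and 1, Pdk4, higher (median log2 difference -0.36). Pdk4 was at 141, 149.8 and 176 scaled RPKM in control and 565, 827 and 803 in db/db hearts, with no overlap. Pdpr and Pdp2, which restore the dehydrogenase by removing the phosphate that Pdk4 adds, had log2 differences of -1.4 and -0.82. Pdp2 missed the threshold without db/db replicate 1 (log2 difference -0.54, adjusted p = 0.0564) and without control replicate 2 (adjusted p = 0.121). Of the subunits of the complex, Dlat had a log2 difference of -0.55 and Pdhb of -0.44. Pyruvate dehydrogenase had 1 higher and 1 lower without control replicate 2, and 2 and 7 without db/db replicate 1. Calls that did not hold with 1 library left out, with adjusted p, were Pdhb (0.0964) and Pdpr (0.0652) without control replicate 3.

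Glycogen genes had 8 of 21 members lower and 0 higher. Ppp1r3c and Ppp1r3a, which target protein phosphatase 1 to glycogen, had log2 differences of -1.4 and -1.0, and Gys1, muscle glycogen synthase, -0.71. Ugp2, which makes the glucose donor for glycogen, had a log2 difference of -0.86, and Gbe1, the branching enzyme, -0.60. In glycolysis 5 of 25 members fell and 1 rose. Hk2, the hexokinase of insulin-responsive muscle, was at 39.2, 44.5 and 42.9 scaled RPKM in control and 11.8, 16.2 and 15.9 in db/db hearts (log2 difference -1.53), with no overlap. Pfkfb2, the heart bifunctional enzyme that activates phosphofructokinase, had a log2 difference of -0.75, and Pkm, pyruvate kinase, -0.50. Glycogen synthesis and breakdown had 0 higher and 2 lower without control replicate 2 or 3, and 5 and 8 without db/db replicate 1. Glucose uptake and glycolysis had 0 higher and 4 lower without control replicate 3, and 2 and 13 without db/db replicate 1. Gys1 and Ppp1r3a had log2 differences of -0.45 and -0.66 without db/db replicate 1. No longer called, by adjusted p, were Gys1 (0.124) without control replicate 1, Ppp1r3c (0.0786) without control replicate 2 and Ppp1r3a (0.0824) without control replicate 3.

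Of the ketone genes, Bdh1 and Oxct1, which take ketone bodies back to acetyl-CoA, had log2 differences of -1.95 and -1.61. Oxct1, the most abundant of the 6 ketone genes measured, was at 304, 322 and 309 scaled RPKM in control and 79.9, 111 and 119 in db/db hearts, with no overlap. Branched-chain amino acid breakdown had 9 of 23 members lower and 0 higher (median log2 difference -0.32), spread over the path. Dbt, the core of the branched-chain ketoacid dehydrogenase, had a log2 difference of -0.65, Ivd of the leucine branch -0.62, Hibch of the valine branch -0.52 and Mut, methylmalonyl-CoA mutase at the end of the path, -0.71. Abat, which breaks down GABA and beta-alanine, went from 1.73 ± 0.339 to 0.0973 ± 0.0365 scaled RPKM (log2 difference -3.21). Slc6a6, the taurine transporter, rose together with Cdo1 (log2 difference 1.11), in a list of amino acid and creatine genes with 10 of 35 members higher and 8 lower. The tricarboxylic acid cycle had 3 of 23 members higher and 4 lower, and its most abundant gene Idh2 was at 429 ± 39.2 and 629 ± 163 scaled RPKM (adjusted p = 0.062). Branched-chain amino acid breakdown had 0 higher and 5 lower without control replicate 1 or 3 or db/db replicate 2, and 0 and 11 without db/db replicate 1. Amino acid and creatine genes had 6 higher and 3 lower without control replicate 2, 12 and 10 without db/db replicate 1, and 7 and 2 without control replicate 3. The tricarboxylic acid cycle had 1 higher and 1 lower without control replicate 2 or 3, and 5 and 6 without db/db replicate 1.

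Respiratory chain genes differed between the library that stands apart and the others. Of 36 nuclear-encoded genes of complex I, 2 rose and 1 fell. Of 24 genes of complexes III and IV, 0 passed at an adjusted p under 0.05 in limma, 4 without db/db replicate 1, and 6 at an unadjusted p under 0.05. Of 18 ATP synthase genes, 3 rose. The median departure of complex III and IV genes from the control mean was 1.02 in db/db replicate 1, and 0.15 and 0.12 in replicates 2 and 3. Among the 13 protein genes of the mitochondrial genome 0 rose and 1 fell, mt-Nd4l. Complex I genes had 0 higher and 0 lower without control replicate 1 or 2 or 3, and 4 and 1 without db/db replicate 1. ATP synthase genes had 0 higher and 0 lower without control replicate 1 or 2 or 3, and 7 and 0 without db/db replicate 1.

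Genes that read and maintain the mitochondrial genome were more often lower than higher. Of 28 genes of mitochondrial biogenesis and genome expression 12 fell and 2 rose (median log2 difference -0.32). Ppara, the receptor gene itself, was at 2.79, 2.91 and 2.74 scaled RPKM in control and 0.649, 1.05 and 1.58 in db/db hearts (log2 difference -1.36), while its targets rose. Ppargc1b and Ppargc1a, coactivators of mitochondrial genes, had log2 differences of -1.1 and -0.73. Mtif2, the initiation factor of mitochondrial translation, had a log2 difference of -0.81 and Tfb1m, an rRNA methyltransferase of the mitochondrial ribosome, -0.81. Nrf1, a transcription factor for respiratory genes, rose (log2 difference 0.67). For fusion and fission 5 of 24 genes fell and 0 rose. Opa1, the inner membrane fusion protein, and Dnm1l, the fission dynamin, had log2 differences of -1.01 and -1.11. Mfn1 and Mfn2, the outer membrane mitofusins, had log2 differences of -1.22 and -1.06, with all 3 and 2 of the 3 db/db values not whole numbers of reads. Mitochondrial ribosomal proteins had 6 of 78 members lower and 0 higher, a share below the 12.5% of all members. Protein import had 5 of 38 lower and 0 higher. For both lists the median departure was positive in db/db replicate 1 (0.39 and 0.27) and negative in replicates 2 and 3 (-0.16 and -0.20, and -0.15 and -0.17). Mitochondrial genome expression had 1 higher and 6 lower without control replicate 2 or 3, and 2 and 16 without db/db replicate 1. Mitochondrial fusion, fission and cristae had 0 higher and 4 lower without control replicate 1 or 2 or 3 or db/db replicate 3, and 1 and 8 without db/db replicate 1. Mitochondrial ribosomal proteins had 0 higher and 3 lower without control replicate 2 or 3, and 2 and 26 without db/db replicate 1. Mitochondrial protein import had 0 higher and 3 lower without control replicate 3, and 1 and 14 without db/db replicate 1. Adjusted p rose above the threshold, to the value given, for Ppargc1a (0.101) without control replicate 2 and Tfb1m (0.0689) without control replicate 3.

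**Figure D5:**
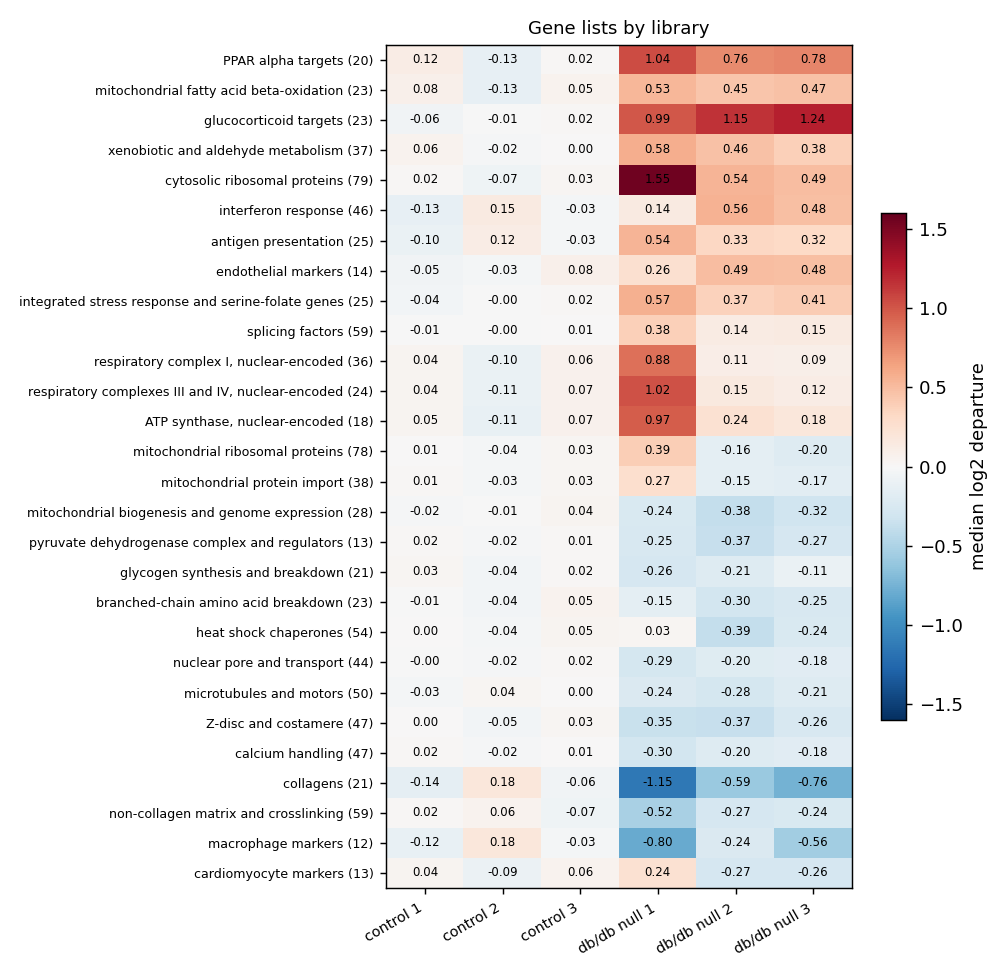
Median log2 departure from the control mean over the members of each list (rows, members in brackets) in each library (columns), with the value printed in each cell. Respiratory chain lists are near 1 in db/db replicate 1 only, whereas PPAR alpha targets, glucocorticoid targets and collagens are on 1 side in all 3 db/db hearts.

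Cytosolic ribosomal protein genes were higher, at 55 of 79 members, and 0 were lower (median log2 difference 0.87). The size rested in part on 1 library, since the median departure was 1.55 in db/db replicate 1 and 0.54 and 0.49 in replicates 2 and 3. Without replicate 1 the count was 76 higher and 0 lower with a median of 0.52, and with length and GC trends removed it was 61 and 0 (median 0.75). Many of these genes have processed pseudogenes of near-identical sequence, so reads could be divided between copies. The transcripts of this family typically begin with a C and a run of pyrimidines, a signature through which their translation is controlled. A C followed by at least 4 further C or T letters, starting within 5 bases of the annotated start, was found in 28 of the 58 members with a promoter in the RefSeq table (48.3%), against 21.2% of all 27025 promoters. This motif was chosen after the values were seen. It was present in 25.4% of all promoters of higher genes, 23.9% of those of lower genes and 24.3% of those not called. The following members, picked for a match, are shown as examples of it, as the bases around the start in RefSeq GRCm38.p6, read 5′ to 3′ on the gene's strand with the tract in capitals.
Rpl13a (chr7:45128736-45128783, minus strand): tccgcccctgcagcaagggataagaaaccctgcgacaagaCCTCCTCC
Rps24 (chr14:24490636-24490687, plus strand): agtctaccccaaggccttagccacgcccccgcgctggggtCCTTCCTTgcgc
Rps27 (chr3:90213639-90213690, minus strand): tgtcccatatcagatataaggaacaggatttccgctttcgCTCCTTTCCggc
Rpl13a, a protein of the large subunit, was at 68.3, 63.6 and 69 scaled RPKM in control and 263, 118 and 111 in db/db hearts (log2 difference 1.17). Rps24, of the small subunit, was at 378, 333 and 363 in control and 1231, 564 and 536 in db/db hearts (log2 difference 1.01, adjusted p = 0.0344). Rps27 had a log2 difference of 1.04. In each of these genes db/db replicate 1 was the highest library and the other db/db hearts lay above every control. Cytosolic ribosomal proteins had 3 higher and 0 lower without control replicate 1 or 3, and 1 and 0 without control replicate 2. They had 76 and 0 without db/db replicate 1. Rpl13a, Rps24 and Rps27 had log2 differences of 0.77, 0.62 and 0.64 without db/db replicate 1. Calls lost on leaving out 1 library, with the highest adjusted p, were Rpl13a (0.0776) and Rps24 (0.109) without control replicate 2 and Rps27 (0.11) without control replicate 3.

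Translation factors were mixed, with 14 of 51 members higher and 6 lower. Eif4ebp1, a repressor of cap-dependent initiation, had a log2 difference of 0.97, and Eif4e, the cap-binding protein it holds, -0.97. Eif3e and Eif1 of the preinitiation complex had log2 differences of 0.85 and 0.79, and Eef1a1, an elongation factor, 0.74. Among 36 aminoacyl-tRNA synthetases 2 rose and 7 fell, with the mitochondrial Cars2 at a log2 difference of -0.63. Splicing factors had 14 of 59 members higher and 3 lower. Clk1, a kinase of splicing factors, had a log2 difference of 1.01, and Srsf7 and Srsf5, serine- and arginine-rich splicing factors, 0.78 and 0.74. Prpf8, the core protein of the spliceosome, fell (log2 difference -0.60). Among other RNA-binding proteins 3 of 54 rose and 8 fell. Qk, which directs muscle splicing and RNA stability, had a log2 difference of -1.3, and Rbm20, the splicing regulator of titin, -0.65. Translation factors had 4 higher and 3 lower without control replicate 3, and 17 and 9 without db/db replicate 1. Aminoacyl-tRNA synthetases had 0 higher and 0 lower without control replicate 3, and 2 and 10 without db/db replicate 1. Splicing factors had 4 higher and 1 lower without control replicate 2 or 3, and 19 and 5 without db/db replicate 1. Other RNA-binding and decay proteins had 1 higher and 3 lower without control replicate 2 or 3, and 7 and 12 without db/db replicate 1. Eif3e and Eif4ebp1 had log2 differences of 0.53 and 0.62 without db/db replicate 1. The threshold was missed, at the adjusted p given, by Srsf7 (0.0654) without control replicate 1, Eif3e (0.118), Eif4ebp1 (0.098) and Srsf5 (0.0874) without control replicate 2 and Cars2 (0.0596) and Prpf8 (0.0512) without control replicate 3.

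Nuclear transport genes fell in 16 of 44 members and rose in 1. Kpna1, Kpna3 and Kpna4, importins that carry proteins into the nucleus, had log2 differences of -1.17, -1.1 and -0.71, and Xpo1, the main exportin, -0.66. With length and GC trends removed 7 fell and 1 rose. General transcription (3 of 62 higher, 4 lower), chromatin (4 of 84 higher, 9 lower) and ribosome assembly (5 of 49 higher, 3 lower) had smaller called shares than all members. DNA repair had 3 of 43 higher and 6 lower, a called share of 20.9% against 22.9% of all members. Ung, the uracil glycosylase, had a log2 difference of -1.57, and Hdac9, a class II deacetylase, -0.97. Nuclear pore and transport had 0 higher and 7 lower without control replicate 2 or 3, and 1 and 18 without db/db replicate 1. RNA polymerase II and Mediator had 1 higher and 0 lower without control replicate 1 or 2 or 3, and 3 and 6 without db/db replicate 1. Chromatin modifiers had 1 higher and 2 lower without control replicate 3, and 14 and 11 without db/db replicate 1. Ribosome biogenesis had 1 higher and 1 lower without control replicate 2, and 5 and 9 without db/db replicate 1. DNA repair had 2 higher and 2 lower without control replicate 2, and 3 and 9 without db/db replicate 1. Calls that did not hold with 1 library left out, with adjusted p, were Hdac9 (0.0598) and Xpo1 (0.107) without control replicate 3.

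Heat shock chaperones were more often lower than higher. Of 54 members 13 fell and 2 rose (median log2 difference -0.24), and 23 fell and 3 rose without db/db replicate 1, in which the median departure was 0.03 against -0.39 and -0.24 in replicates 2 and 3. Hsph1, an HSP110 exchange factor, was at 33.3, 20.1 and 26.1 scaled RPKM in control and 7.03, 4.86 and 5.79 in db/db hearts (log2 difference -2.14), with no overlap. Hsp90aa1, the stress-inducible HSP90, went from 137 ± 29.3 to 57.2 ± 17.2 (log2 difference -1.28), and its co-chaperone Stip1 and the HSP110 relative Hspa4l had -1.18 and -1.12. Of the genes that rose, Fkbp5 is also a glucocorticoid target and Hspa12b is an endothelial HSP70 relative (log2 differences 1.0 and 0.47). The heat shock element, taken as GAA, 2 bases, TTC, 2 bases, GAA on either strand, was found in 5 of 43 chaperone promoters (11.6%), against 0.662% of all promoters in the table. Of the 13 called members with a promoter 3 held it. The window of Hspd1, the mitochondrial HSP60, and that of Chordc1, an HSP90 co-chaperone, show it in capitals (RefSeq, GRCm38.p6).
Hspd1 (chr1:55088019-55088116, minus strand): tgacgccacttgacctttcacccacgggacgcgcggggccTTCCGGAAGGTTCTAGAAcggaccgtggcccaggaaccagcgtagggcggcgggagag
Chordc1 (chr9:18292223-18292276, plus strand): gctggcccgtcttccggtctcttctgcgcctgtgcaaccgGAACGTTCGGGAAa
Chordc1 had a log2 difference of -1.07, from 4.01 ± 0.401 to 1.86 ± 0.212 scaled RPKM, and Hspd1 -0.42. These 2 members were chosen for the match after their values were seen. A match is a stretch of letters and no evidence of binding. Endoplasmic reticulum folding had 5 of 46 members higher and 7 lower, with Sdf2l1 and Pdia4, luminal folding proteins, at log2 differences of -1.34 and -0.85 and Herpud1, of the degradation route, at 0.73. Heat shock chaperones had 0 higher and 11 lower without control replicate 3, and 3 and 23 without db/db replicate 1. Reticulum folding had 1 higher and 3 lower without control replicate 2, 5 and 13 without db/db replicate 1, and 3 and 2 without control replicate 3. No longer called, by adjusted p, were Hspd1 (0.0711) without control replicate 1, Herpud1 (0.073) and Sdf2l1 (0.0875) without control replicate 2 and Fkbp5 (0.132) and Hspa12b (0.0656) without control replicate 3.

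The integrated stress response, in which the factor ATF4 induces amino acid and serine-folate genes, had 10 of 25 members higher and 4 lower (median log2 difference 0.44). Mthfd2, a mitochondrial folate enzyme, was at 0.695, 0.686 and 0.568 scaled RPKM in control and 2.51, 1.47 and 2.41 in db/db hearts (log2 difference 1.54). Phgdh, the first enzyme of serine synthesis, Trib3, a pseudokinase, and Ddit4, an inhibitor of mTORC1, had log2 differences of 1.17, 1.19 and 1.52. Atf4, the factor itself, had a log2 difference of 0.61. Aldh18a1, of proline synthesis, and Psph, the last enzyme of serine synthesis, fell (log2 differences -0.80 and -0.48). The ATF4 element (TGATGNAA, where N is any base, on either strand) was found in 6 of 25 promoters of the list (24%) and in 4.51% of all, and in 2 of the 14 called members. Asns, asparagine synthetase, is shown with it in capitals.
Asns (chr6:7693200-7693272, minus strand): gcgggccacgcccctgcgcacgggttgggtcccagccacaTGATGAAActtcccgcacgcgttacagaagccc
Asns was at 0.264, 0.309 and 0.275 scaled RPKM in control and 0.922, 0.56 and 0.528 in db/db hearts (log2 difference 0.97, adjusted p = 0.0302). It was chosen for its match after its values were seen, and without db/db replicate 1 it lay below the level needed for a test. The integrated stress response had 5 higher and 2 lower without control replicate 2 or 3. Atf4 had a log2 difference of 0.39 without db/db replicate 1. Adjusted p rose above the threshold, to the value given, for Aldh18a1 (0.0878), Atf4 (0.13) and Trib3 (0.0546) without control replicate 2 and Asns (0.0849), Phgdh (0.0922) and Psph (0.0561) without control replicate 3.

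Targets of the glucocorticoid receptor, which is activated by adrenal steroids, rose in 14 of 23 members and fell in 0 (median log2 difference 1.05). The median departure was 0.99, 1.15 and 1.24 in the 3 db/db hearts, and -0.06 to 0.02 in control. Fam107a, an actin-binding stress gene, was at 1.48, 1.4 and 0.941 scaled RPKM in control and 3.4, 6.2 and 6.33 in db/db hearts (log2 difference 1.95). Ddit4, described above, and the metallothionein gene Mt1 had log2 differences of 1.52 and 1.52. Angptl4 and Pdk4 belong to this list and to that of PPAR alpha targets, so their rises count in both. Sgk1, a kinase that controls sodium transport, was the 1 member of 20 with a promoter that held an exact receptor palindrome, shown in capitals, which is found in 0.0111% of all promoters in the table.
Sgk1 (chr10:21993661-21993755, plus strand): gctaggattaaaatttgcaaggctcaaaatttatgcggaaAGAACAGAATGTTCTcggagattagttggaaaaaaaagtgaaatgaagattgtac
Sgk1 was at 4.24, 3.77 and 4.13 scaled RPKM in control and 8.96, 8.63 and 7.86 in db/db hearts (log2 difference 1.05), and the groups did not overlap. It was singled out for this match after its values were seen.

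Clock genes had 6 of 24 members higher and 1 lower. Per1 and Per2, repressors of the circadian clock, were led by Per1 at 3.65, 1.22 and 1.75 scaled RPKM in control and 3.2, 6.72 and 7.72 in db/db hearts (log2 difference 1.42), with Per2 at 1.35. The groups overlapped for Per1 and did not for Per2. Bhlhe41, a clock repressor, fell (log2 difference -0.69). The hour at which each heart was taken is not given in the labels, and its part was not tested. Immediate early genes had 9 of 29 members higher and 0 lower, with the vessel-expressed factors Klf2 and Klf4 at log2 differences of 1.53 and 1.36 and Myc at 1.21. Targets of hypoxia-inducible factors were split at 4 higher and 4 lower of 23. Egln3, a prolyl hydroxylase of that factor, had a log2 difference of -1.31, and Vegfa, the vessel growth factor and most abundant member, went from 149 ± 38.8 to 80.8 ± 15.2 scaled RPKM. Among p53 targets, Fas, a death receptor, and Cdkn1a, the cell cycle inhibitor p21, rose (log2 differences 1.26 and 1.24) and Ccng1, cyclin G1, fell (-1.1), in a list with 4 of 22 higher and 2 lower. Cell death genes had 7 of 38 higher and 2 lower, a called share of 23.7%, near the 22.9% of all members. Bcl2l1, which opposes apoptosis, had a log2 difference of 1.17 and Pycard, the inflammasome adaptor, -1.15. Circadian clock and its outputs had 1 higher and 0 lower without control replicate 2 or 3, 7 and 2 without db/db replicate 1, and 5 and 3 without control replicate 1. Hypoxia-inducible factor targets had 2 higher and 1 lower without control replicate 3, and 9 and 6 without db/db replicate 1. Targets of p53 had 2 higher and 0 lower without control replicate 3, and 5 and 4 without db/db replicate 1. Cell death genes had 4 higher and 0 lower without control replicate 3, and 7 and 3 without db/db replicate 1. Ccng1 had a log2 difference of -0.71 without db/db replicate 1. Calls lost on leaving out 1 library, with the highest adjusted p, were Myc (0.0796) without control replicate 1, Per1 (0.12), Pycard (0.0661) and Vegfa (0.0855) without control replicate 2, Ccng1 (0.0848), Egln3 (0.0564) and Per2 (0.0606) without control replicate 3 and Bhlhe41 (0.102) without db/db replicate 2.

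Genes of redox defence and detoxification were more often higher than lower. Of 33 antioxidant genes 10 rose and 1 fell, and of 37 genes of xenobiotic and aldehyde metabolism 20 rose and 4 fell (median log2 difference 0.47; 20 and 5 without db/db replicate 1). Sod1 was at 229.9, 189 and 214 scaled RPKM in control and 836, 483 and 458 in db/db hearts (log2 difference 1.44). Cat, catalase, was at 69.9, 58.7 and 62.9 in control and 148, 164 and 179 in db/db hearts (log2 difference 1.36), and Gpx3, the secreted glutathione peroxidase, had 1.35. For Sod1 and Cat every db/db heart lay above every control. Txnip, which binds thioredoxin and is induced by glucose, had a log2 difference of 1.04, while Txnrd1, thioredoxin reductase, fell (-0.57). The antioxidant promoter element was found in 9 of 27 promoters of antioxidant genes (33.3%), against 45% of all promoters. In xenobiotic and aldehyde metabolism it was found in 20 of 30 (66.7%). Among detoxifying enzymes, Ephx1, the microsomal epoxide hydrolase, Fmo2, a flavin monooxygenase, Cyp4b1, a cytochrome P450, and the glutathione transferase gene Gsta3 had log2 differences of 1.54, 1.54, 1.65 and 1.46. Gsta3 has close relatives in its family, so its reads may be shared. Aldh1a2, which makes retinoic acid, and Cbr2, a carbonyl reductase, fell (log2 differences -1.25 and -1.22). Antioxidant and glutathione enzymes had 6 higher and 0 lower without control replicate 3, and 12 and 4 without db/db replicate 1. Xenobiotic and aldehyde metabolism had 14 higher and 2 lower without control replicate 3, and 20 and 5 without db/db replicate 1. The threshold was missed, at the adjusted p given, by Txnrd1 (0.0918) without control replicate 1 and Aldh1a2 (0.0659) without control replicate 2.

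Iron genes had changes in both directions, with 7 of 41 members higher and 8 lower. The storage subunits Fth1 and Ftl1 and the haem-degrading enzyme Hmox1 rose, with Fth1 at 490.4, 479 and 522 scaled RPKM in control and 988, 688 and 685 in db/db hearts (log2 difference 0.64) and Ftl1 and Hmox1 at 1.03 and 0.90. Tfrc, the transferrin receptor through which iron enters, was at 1.69, 3.3 and 1.84 in control and 0.949, 0.621 and 0.624 in db/db hearts (log2 difference -1.48), with no overlap. Alas1 and Cpox, the first and a late enzyme of haem synthesis, fell (log2 differences -1.2 and -1.13). The mitochondrial iron importer gene Slc25a28 rose (log2 difference 1.05). Iron genes had 4 higher and 6 lower without control replicate 2 or 3, and 8 and 14 without db/db replicate 1. Calls that did not hold with 1 library left out, with adjusted p, were Fth1 (0.0777) without control replicate 2 and Hmox1 (0.0581) without control replicate 3.

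Genes of the contractile apparatus were more often lower than higher. Sarcomere genes had 14 of 39 members lower and 4 higher, Z-disc and costamere genes 16 of 47 lower and 3 higher (median log2 difference -0.36) and calcium handling genes 15 of 47 lower and 0 higher. Without db/db replicate 1 they were 17 and 6, 21 and 4, and 20 and 1. The sum of cardiomyocyte markers overlapped between the groups, as given above, with 3 of 13 markers lower and 0 higher. In tissue RNA, fewer cells of a type and less RNA per cell cannot be told apart. Sarcomere genes had 2 higher and 11 lower without control replicate 2, and 6 and 17 without db/db replicate 1. Z-disc and costamere genes had 1 higher and 9 lower without control replicate 2, and 4 and 21 without db/db replicate 1. Cardiomyocyte markers had 0 higher and 1 lower without control replicate 1 or 2 or 3, and 1 and 6 without db/db replicate 1.

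In the sarcomere, Actc1, cardiac actin of the thin filament, was at 1663, 1793 and 1677 scaled RPKM in control and 766, 453 and 482 in db/db hearts (log2 difference -1.63, SE 0.20, adjusted p = 0.00153). Lmod3, which nucleates thin filaments, and Myh7b, a slow-type myosin, had log2 differences of -2.04 and -1.94. Acta1, skeletal actin, had a log2 difference of -1.56. It did not pass without db/db replicate 1 (adjusted p = 0.0704) or without control replicate 1 (adjusted p = 0.103). Myh6, the adult ventricular myosin and the most abundant sarcomere gene, was at 18153 ± 1597 and 13952 ± 2384 and did not pass (adjusted p = 0.121). Mybph and Myom2, myosin- and M-band-associated proteins, rose (log2 differences 1.3 and 1.11). At the Z-disc, the stretch-responsive ankyrin-repeat genes Ankrd2 and Ankrd23 had log2 differences of -2.03 and -1.8, and Vcl, vinculin of the costamere, -1.12. Des, desmin of the intermediate filaments, rose (log2 difference 0.61); it is also a mural cell marker. No longer called, by adjusted p, were Ankrd23 (0.0952) and Des (0.0892) without control replicate 2 and Mybph (0.115) without control replicate 3.

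At the intercalated disc, 7 of 29 members fell and 3 rose. Gja1, connexin 43 of the ventricular gap junction, was at 51.4, 64.3 and 66.3 scaled RPKM in control and 22.4, 26.8 and 26.3 in db/db hearts (log2 difference -1.26), and Cxadr, a junction receptor, had -1.41. With length and GC trends removed 3 fell and 3 rose. In calcium handling, Atp2a2, the pump SERCA2 that refills the sarcoplasmic reticulum, was at 1163, 1049 and 1176 in control and 246, 609 and 649 in db/db hearts (log2 difference -1.29, adjusted p = 0.0264, and -0.84 without db/db replicate 1, which is the lowest library). Slc8a1, the sodium-calcium exchanger, Asph, whose locus also encodes junctin, and Casq1, a calsequestrin, had log2 differences of -1.53, -1.27 and -1.68, and the kinase gene Camk2b -1.47. Hrc, the most abundant of the list, was at 1710 ± 63.3 and 1342 ± 152 and did not pass (adjusted p = 0.0755). Of 37 ion channel and pump genes 9 fell and 1 rose, among them Hcn2, a pacemaker channel (log2 difference -1.36), and Clcn1, a muscle chloride channel (-1.29). Kcna5, a repolarising potassium channel, rose (log2 difference 0.76). Intercalated disc and gap junctions had 2 higher and 5 lower without control replicate 3, and 4 and 12 without db/db replicate 1. Voltage-gated and potassium channels and pumps had 1 higher and 6 lower without control replicate 3, and 4 and 9 without db/db replicate 1. Slc8a1 had a log2 difference of -0.98 without db/db replicate 1. Adjusted p rose above the threshold, to the value given, for Slc8a1 (0.0882) without control replicate 2 and Atp2a2 (0.0807) and Casq1 (0.0848) without control replicate 3.

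Genes of signalling to the myocyte were called in both directions. Adrenergic and cAMP genes had 6 of 42 members higher and 11 lower. Akap5 and Akap1, anchors of protein kinase A, and Prkar2a and Prkaca, its regulatory and catalytic subunits, had log2 differences of -2.2, -0.89, -1.23 and -0.78. Grk5, which desensitises receptors, and Adora1, the adenosine A1 receptor, rose (log2 differences 1.06 and 1.09). Insulin pathway genes had 4 of 51 higher and 8 lower, and their called share of 23.5% was near the 22.9% of all members. Prkaa2, the AMP-activated kinase subunit of muscle, had a log2 difference of -1.39, and Grb10, an adaptor that restrains the insulin receptor, -0.92. Cardiac transcription factors had 4 of 31 higher and 8 lower. Prox1, Tead1 and Mef2c had log2 differences of -1.21, -1.08 and -0.91, and Hand2, the most abundant of them, rose from 40 ± 5.8 to 74.7 ± 12.1 scaled RPKM (0.90). Among natriuretic and fetal stress genes 5 of 21 rose and 7 fell. The median log2 difference was -0.50, and -0.61 without db/db replicate 1. Ctgf, a matricellular growth factor, rose against that median. It was at 8.88, 10.9 and 13.9 scaled RPKM in control and 25.3, 32.6 and 55.2 in db/db hearts (log2 difference 1.69). Ankrd1, the most abundant, was at 1044 ± 112 and 721 ± 718 and did not pass (adjusted p = 0.231). Adrenergic, cAMP and muscarinic signalling had 1 higher and 4 lower without control replicate 2, and 11 and 12 without db/db replicate 1. Insulin and IGF signalling had 3 higher and 4 lower without control replicate 2, 9 and 10 without db/db replicate 1, and 4 and 3 without control replicate 3. Cardiac transcription factors had 2 higher and 3 lower without control replicate 2, and 9 and 10 without db/db replicate 1. Natriuretic peptides and fetal stress genes had 3 higher and 3 lower without control replicate 2, and 6 and 11 without db/db replicate 1. Calls lost on leaving out 1 library, with the highest adjusted p, were Adora1 (0.0626), Grk5 (0.0757) and Mef2c (0.0534) without control replicate 2.

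Among microtubule, motor and secretory genes more members fell than rose. Microtubule and motor genes had 13 of 50 members lower and 2 higher. Kif21a and Kif5b, kinesin motors, Clasp1, which stabilises microtubule ends, and Mapt, the protein tau, had log2 differences of -1.44, -1.01, -1.28 and -1.21. Secretory pathway genes had 14 of 68 lower and 1 higher, a called share of 22.1% against 22.9% of all members. Among them, Lman1, a cargo receptor, and Ap1b1, a clathrin adaptor subunit, had log2 differences of -1.1 and -1.03. Lysosomal genes were even, at 6 higher and 6 lower of 54, a called share of 22.2%. Autophagy genes rose in 12 of 43 members and fell in 2. Bnip3, a mitophagy receptor, Gabarapl1, an autophagosome protein, and Sqstm1, the cargo receptor p62, had log2 differences of 1.02, 1.0 and 0.68. A list of FoxO and atrophy genes had 6 of 27 members higher and 2 lower (median log2 difference 0.05). Its summed level was 968 to 988 scaled RPKM in control and 1211 to 1458 in db/db hearts. Trim55 and Fbxo40, ubiquitin ligases of muscle wasting, ran against that count and fell (log2 differences -1.18 and -0.99). Proteasome genes had 6 of 42 higher and 1 lower. Microtubules and motors had 1 higher and 7 lower without control replicate 3, 3 and 21 without db/db replicate 1, and 4 and 16 without db/db replicate 3. Secretory and vesicle traffic had 0 higher and 8 lower without control replicate 2 or 3, and 4 and 18 without db/db replicate 3. Autophagy and mitophagy had 7 higher and 0 lower without control replicate 2 or 3, and 13 and 3 without db/db replicate 1. FoxO factors and muscle atrophy genes had 5 higher and 2 lower without control replicate 2, and 11 and 4 without db/db replicate 1. Proteasome genes had 3 higher and 0 lower without control replicate 2 or 3, and 8 and 4 without db/db replicate 1. Lysosomal genes had 2 higher and 2 lower without control replicate 2 or 3, and 10 and 8 without db/db replicate 1. Sqstm1 had a log2 difference of 0.45 without db/db replicate 1. The threshold was missed, at the adjusted p given, by Sqstm1 (0.0928) without control replicate 3.

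Among collagens more members fell than rose. They had 13 of 21 members lower and 0 higher (median log2 difference -0.88), and the count was the same without db/db replicate 1 (median -0.68). The median departure was -1.15, -0.59 and -0.76 in the 3 db/db hearts. Col3a1 was at 9.12, 16.1 and 12.2 scaled RPKM in control and 3.22, 2.01 and 1.49 in db/db hearts, with no overlap. Col15a1, of the muscle basement membrane, was at 7.01, 10.9 and 8.57 in control and 1.96, 2.42 and 1.62 in db/db hearts (log2 difference -2.08). Col6a3 and Col6a2, chains of the microfibrillar type VI collagen, had log2 differences of -1.91 and -1.43, and Col14a1, a fibril-associated collagen, -1.07. Col4a1 of the basement membrane, the most abundant collagen, went from 47.8 ± 6.82 to 26.5 ± 7.3. Col4a1 was not called without control replicate 2 (adjusted p = 0.0695).

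Other matrix and crosslinking genes had 18 of 59 members lower and 4 higher. Loxl2, a lysyl oxidase that crosslinks collagen, Serpinh1, the collagen chaperone HSP47, P4ha1, a collagen prolyl hydroxylase, and Fbn1, fibrillin of the elastic microfibrils, had log2 differences of -1.44, -1.13, -1.22 and -1.22. Thbs2, a matricellular thrombospondin, rose (log2 difference 1.51). Among proteases and their inhibitors 6 of 32 rose and 4 fell. Timp4 and Timp3, inhibitors of metalloproteinases, had log2 differences of 1.41 and 1.18, Timp3 going from 16.2 ± 2.27 to 36.8 ± 4.95 scaled RPKM. Fibroblast markers had 5 of 13 members lower and 2 higher, and those that fell included Lum, Col1a2 and Col1a1, matrix genes themselves. Their summed level did not fall, at 295 to 401 scaled RPKM in control and 407 to 444 in db/db hearts, a sum that Gsn, which rose, leads. The part of fibroblast number in the fall of the collagens was not tested. TGF beta and BMP genes had 5 of 36 higher and 3 lower, a called share of 22.2% against 22.9% of all members. Id3 had a log2 difference of 1.02 and Fstl1, a follistatin-like secreted protein, -1.02. Non-collagen matrix and crosslinking had 1 higher and 11 lower without control replicate 2 or 3, and 9 and 23 without db/db replicate 1. Matrix proteases and inhibitors had 3 higher and 3 lower without control replicate 2, and 8 and 4 without db/db replicate 1. TGF-beta and BMP signalling had 1 higher and 1 lower without control replicate 3. Fibroblast markers had 2 higher and 3 lower without control replicate 2, and 3 and 6 without db/db replicate 1. No longer called, by adjusted p, were Col1a1 (0.0602) without control replicate 2 and Id3 (0.0541) without control replicate 3.

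Genes of the interferon response and of antigen presentation were more often higher than lower. Interferon-induced genes had 15 of 46 members higher and 0 lower (median log2 difference 0.40), and 30 and 0 without db/db replicate 1, in which the median departure was 0.14 against 0.56 and 0.48 in replicates 2 and 3. Irf7, the amplifying transcription factor of the response, was at 2.15, 1.87 and 1.33 scaled RPKM in control and 4.03, 6.98 and 5.53 in db/db hearts (log2 difference 1.57), with no overlap. Tgtp1 and Gbp4, interferon-induced GTPases, had log2 differences of 1.22 and 0.80. The interferon-stimulated element (GAAA, 2 bases, GAAA, on either strand) was found in 21 of 35 promoters of the list (60%) and in 3.99% of all promoters, and in 6 of the 12 called members with a promoter. Across all members it stood in 5.03% of the promoters of higher genes, 2.23% of those of lower genes and 3.76% of those not called. Ifit3, which binds foreign RNA, and Isg15, a ubiquitin-like modifier, are shown with the element in capitals.
Ifit3 (chr19:34583333-34583456, plus strand): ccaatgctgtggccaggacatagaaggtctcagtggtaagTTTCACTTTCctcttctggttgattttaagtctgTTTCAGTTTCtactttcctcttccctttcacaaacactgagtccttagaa
Isg15 (chr4:156200835-156200936, minus strand): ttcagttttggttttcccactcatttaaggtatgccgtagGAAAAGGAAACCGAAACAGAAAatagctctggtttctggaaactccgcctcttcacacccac
Ifit3 was at 11.4, 11.6 and 7.0 scaled RPKM in control and 14.6, 20.6 and 15.8 in db/db hearts (log2 difference 0.78), and Isg15 at 2.92, 3.97 and 2.57 in control and 4.12, 5.25 and 4.42 in db/db hearts (log2 difference 0.55). Isg15 was chosen for its match after its values were seen. Antigen presentation had 12 of 25 members higher and 1 lower. H2-K1, a classical class I heavy chain, and Psmb8 of the immunoproteasome had log2 differences of 1.07 and 0.65. H2-Q6, H2-Q7 and H2-Q4 had log2 differences of 1.53, 1.41 and 1.2, but these copies are similar enough that reads may be misassigned, and strain differences at this locus are not given in the labels. Interferon-induced genes had 6 higher and 0 lower without control replicate 3, and 30 and 0 without db/db replicate 1. Antigen presentation had 10 higher and 0 lower without control replicate 2 or db/db replicate 2, and 13 and 4 without db/db replicate 1. Adjusted p rose above the threshold, to the value given, for Isg15 (0.146) and Psmb8 (0.0541) without control replicate 3 and Ifit3 (0.0853) without db/db replicate 2.

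None of the measured macrophage, lymphocyte or granulocyte markers was higher. Only 1 of 15 lymphocyte and 1 of 12 granulocyte markers reached the level of the rule, so these cells were barely covered. Macrophage markers had 4 of 12 members lower and 0 higher, at a summed level of 92.3 to 119 scaled RPKM in control and 77.1 to 106 in db/db hearts. Timd4 and Cx3cr1, markers of resident and monocyte-derived macrophages, had log2 differences of -1.79 and -1.49. Lymphocyte markers summed to 1.40 to 1.93 in control and 0.90 to 1.81 in db/db hearts, with Gzma listed at 0 in every library. Of 36 cytokine genes 6 rose and 2 fell, a called share of 22.2% against 22.9% of all members. Osmr, the oncostatin M receptor, had a log2 difference of 0.71 and Csf1, the macrophage growth factor, -0.94. Complement genes had 1 of 26 higher and 2 lower. Macrophage markers had 0 higher and 2 lower without control replicate 2, and 0 and 5 without db/db replicate 2. Cytokines, chemokines and receptors had 3 higher and 2 lower without control replicate 2, and 9 and 6 without db/db replicate 1. Complement and coagulation had 1 higher and 1 lower without control replicate 2, and 3 and 2 without db/db replicate 1. Osmr was not called without control replicate 2 (adjusted p = 0.0546).

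Vessel genes had rises among the markers and changes in both directions among growth signals. Endothelial markers rose in 5 of 14 members and fell in 0, and their sum was 211 to 234 scaled RPKM in control and 375 to 467 in db/db hearts. Cldn5, the endothelial claudin, was at 5.24, 5.12 and 5.79 in control and 11.6, 17.9 and 15.6 in db/db hearts (log2 difference 1.44), and Pecam1, the platelet-endothelial adhesion molecule, had 0.47. Fabp4 is in this list too and leads its sum. Angiogenic factors and receptors had 7 of 45 members higher and 10 lower. Apln, the peptide apelin, was at 1.37, 1.88 and 1.7 scaled RPKM in control and 0.274, 0.144 and 0.10 in db/db hearts (log2 difference -2.72), and its receptor Aplnr at 0.733, 1.12 and 1.05 in control and 0.439, 0.217 and 0.171 in db/db hearts (log2 difference -1.55). In both genes every db/db heart lay below every control. Ace, angiotensin-converting enzyme, had a log2 difference of -1.05, and Pgf, placental growth factor, rose (1.26). Mural cell markers had 2 of 13 higher and 1 lower. Cell cycle genes had 4 of 32 higher and 6 lower, among them the cyclins Ccnd1 and Ccnd2 (log2 differences -1.19 and -0.81). Endothelial markers had 4 higher and 0 lower without control replicate 2 or 3 or db/db replicate 2 or 3, and 9 and 1 without db/db replicate 1. Angiogenic factors and receptors had 4 higher and 4 lower without control replicate 3, and 15 and 11 without db/db replicate 1. Pericyte and smooth muscle markers had 0 higher and 1 lower without control replicate 2 or 3, and 3 and 2 without db/db replicate 1. Cell cycle and proliferation had 4 higher and 3 lower without control replicate 2 or 3, and 8 and 6 without db/db replicate 1. The threshold was missed, at the adjusted p given, by Pecam1 (0.126) without control replicate 1 and Aplnr (0.0537) without control replicate 2.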

How the data were processed

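The authors deposited 1 table of RPKM values for 30128 genes in 9 libraries, with gene length. Per the labels' protocols, RNA was poly(A)-selected and made into directional libraries. The submitters' processing notes name HISAT2, DESeq2 and GRCh38, which is a human build. The symbols are mouse and 25482 spans match GENCODE M21 of GRCm38, the build printed. No source used here names the counting tool. In each library, values multiplied by gene length came in whole steps (99.98% of those above 0, within 0.01 reads), and 1 step was taken as 1 read to give the depths.

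The design had foreseen counts. As the values are RPKM, libraries were scaled by a trimmed mean (30% of ratios, 5% of levels trimmed) and limma 3.58.1, run in R 4.3.3 with its trend and robust options, compared log2 of scaled RPKM plus a pseudocount of 0.1. All 9 libraries in 3 groups entered 1 fit, for 14104 genes at 0.5 RPKM or more in at least 3 of the 9. P-values were adjusted by Benjamini-Hochberg. SE is the standard error of the log2 difference. Fold changes on this scale understate those of low genes. The labels do not say whether libraries of a group are separate animals, so the p-values cover the spread among these libraries, which may be technical.

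The members and lists were chosen with earlier results of these data known. Named genes are the 10 widest rises and falls among called genes whose groups do not overlap, with a mean of at least 2 scaled RPKM in the higher group, gene models and pseudogenes left out. The 8 largest gains and losses, up to 5 called members per list and direction, and the most abundant member of a list were added. Exceptions are stated where they occur, and a few genes that the rule names are not reported here. The 74 process and 14 marker lists had 11 entries that matched no symbol. Promoters come from the RefSeq table of GRCm38.p6, which matched 955 higher, 1166 lower and 6518 other members. On simulated reads, the fit recovered 26.5%, 67.3%, 89.4% and 91.7% of genes changed 1.5, 2, 3 and 4-fold among 13924 tested, and called 15 of 13731 unchanged genes. No simulated library stood apart. Only 47 to 49 genes were changed at each size, far fewer than were called in the data, so the adjusted threshold was stricter there.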

Additional observations from a re-analysis of the deposited data

How the results depend on the processing

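Of the 254 called genes named in the text, none changed direction in any of the 19 alternatives that tested it, and 173 passed in every one that tested them. The number called fell to 1863 (823 higher, 1040 lower) with no filter on level, 1683 (729 and 954) when only the 6 libraries compared were fitted and 1062 (478 and 584) at an adjusted p under 0.01. Leaving out 1 library gave 1445 to 4371 called, 658 to 2091 higher and 759 to 2280 lower. With length and GC trends removed and db/db replicate 1 left out, 4334 were called, 2134 higher and 2200 lower. With the replicate block the number called was 2711 (1246 higher, 1465 lower). Replicate numbers did not pair the libraries, with correlations of deviations of -0.0049, 0.017 and -0.024 between same-numbered samples, so the block is not read as a weaker or stronger effect. Scaling by library totals alone left 2401 called, 49.6% of them lower against 54.3%. Limma voom on the recovered reads, chosen after seeing the data as were the removal of trends and the fit without the 11 genes whose values are not whole reads, called 3485. Usp28 remained past the threshold in each alternative, at a log2 difference of -0.77 to -0.54. The count tests planned with edgeR and DESeq2 were not run, since the table holds RPKM. On simulated reads 26.5% of 1.5-fold changes were recovered, but far fewer genes were changed there than were called here. The share of such changes found in these data is therefore not known. The cause of the shifts between alternatives was not tested.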

Other observations

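Genes of the actin cytoskeleton and its regulation had 3 of 59 members higher and 10 lower, with Daam1, a formin, at a log2 difference of -1.76 and Arhgef12, a guanine nucleotide exchange factor, at -0.80. The actin-severing gene Gsn and the small GTPase gene Rhob rose (log2 differences 0.76 and 0.83). Genes of sphingolipid and phospholipid metabolism had 7 of 39 members higher and 3 lower, with the ceramidase gene Acer2 at a log2 difference of 1.16 and Pcyt1a, the rate-limiting enzyme of phosphatidylcholine synthesis, at -0.98. Wnt and Notch genes had 3 of 33 members higher and 4 lower, a called share of 21.2%. Hippo pathway genes and YAP targets had 2 of 25 members higher and 2 lower, with Amot, a YAP-binding scaffold, at a log2 difference of -1.4. Genes of NAD metabolism and sirtuins had 2 of 20 members higher and 1 lower. Actin cytoskeleton and its regulation had 2 higher and 5 lower without control replicate 2, and 6 and 13 without db/db replicate 1. Sphingolipid and phospholipid metabolism had 2 higher and 1 lower without control replicate 2, and 7 and 6 without db/db replicate 1. Wnt and Notch signalling had 2 higher and 0 lower without control replicate 2 or 3, and 10 and 6 without db/db replicate 1. Hippo pathway and YAP targets had 1 higher and 1 lower without control replicate 2 or 3 or db/db replicate 2, and 6 and 5 without db/db replicate 1. NAD metabolism and sirtuins had 0 higher and 1 lower without control replicate 2 or 3, and 4 and 4 without db/db replicate 1.

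Markers of other cell types gave these values. Atrial cardiomyocyte markers had 0 of 6 members higher and 1 lower, and their summed level was 184 to 259 scaled RPKM in control and 124 to 409.8 in db/db hearts. Endocardial and lymphatic markers had 0 of 10 members higher and 1 lower, with sums of 31.2 to 32.5 scaled RPKM in control and 27.6 to 32.9 in db/db hearts. Erythroid and platelet markers had 0 of 6 members higher and 1 lower, with sums of 146 to 534 scaled RPKM in control and 132 to 200.3 in db/db hearts. Skeletal muscle markers had 0 of 5 members higher and 1 lower, with sums of 313 to 373 scaled RPKM in control and 220.3 to 298 in db/db hearts. Schwann cell and neuron markers had 0 of 2 members higher and 0 lower. None of the mesothelial and epicardial markers reached the level of the rule, and their sums were 0.484 to 0.605 scaled RPKM in control and 0.719 to 1.11 in db/db hearts. The part of these cells in the results was not tested.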
